A study of Homo sapiens with 6 samples.

Results

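RBM7, ZCCHC8 and MTREX encode the subunits of the nuclear exosome targeting (NEXT) complex, and all 47 array features named for them were followed in Hep3B cells after UV light irradiation. The members were every row of the deposited value table annotated to RBM7, ZCCHC8 or MTREX, the last under its older symbol SKIV2L2. They amounted to 45 features for RBM7, 1 for ZCCHC8 and 1 for MTREX, out of 45220 features on the array, 40146 of which were named for 843 genes. The genes were selected on their UV log2 ratios, which were known beforehand, so these ratios are given as a description. Calls of the members on them appear only beside the share called over the whole array, and nothing is read from such calls.

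Hep3B is a human hepatoma line known to lack p53, and no other cell line or tissue was analysed here. Irradiated cells received 10 J/m2 of UV light and were collected 6 hours later, and untreated Hep3B cells served as the control. Total RNA of 3 biological replicates was hybridized to a splicing-sensitive Agilent array, once with the irradiated sample in Cy5 (direct array) and once with it in Cy3 (dye-swap array), which gave 6 two-color arrays. The values were log2 ratios of UV over untreated, and they hold no expression levels. No feature was named for any of 9 hepatoma markers, among them AFP and ALB, so the cell label could not be set against its own genes. Of 7 markers of other cell types 1 was covered, the monocyte gene CD14, at 0.25. Where nothing states how the replicates were grown, p-values measure only the spread between these samples.

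NEXT works in the nucleus as an adaptor of the RNA exosome, the multisubunit RNase that degrades RNA from its 3-prime end. RBM7 binds the RNA through its RNA recognition motif, ZCCHC8 is the zinc-knuckle scaffold that holds the complex together, and MTREX (MTR4) is the helicase that unwinds RNA and passes it to the exosome. The complex is known for the decay of promoter upstream transcripts, enhancer RNAs and unprocessed ends of small nuclear RNAs. In human cells exposed to UV light RBM7 is known to be phosphorylated by the p38-MK2 kinases, which lowers its RNA binding, and RBM7 is also known to act on the 7SK particle that holds back the elongation factor P-TEFb.

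In GRCh38.p14 RBM7 lies at chr11:114400666-114410607, ZCCHC8 at chr12:122471600-122500932 and MTREX at chr5:55307989-55425579. As the RBM7 and ZCCHC8 ratios were the lowest of the complex, the 250 bases before their annotated starts are shown, taken from the RefSeq promoter table, with capitals marking matches to 7 short motifs searched on both strands. The motifs were the TATA box TATAAA, the CCAAT box, the GC box GGGCGG and the cAMP response element TGACGTCA. The others were the E box CACGTG, the ETS core CCGGAA and TGCGCA, which is a part of the NRF1 site.
RBM7 (chr11:114400416-114400665, plus strand): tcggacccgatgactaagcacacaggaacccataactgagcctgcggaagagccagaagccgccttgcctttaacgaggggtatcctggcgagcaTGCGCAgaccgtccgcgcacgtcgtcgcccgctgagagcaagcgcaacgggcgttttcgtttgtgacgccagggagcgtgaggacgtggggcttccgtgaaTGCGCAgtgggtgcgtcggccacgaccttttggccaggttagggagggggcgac
ZCCHC8 (chr12:122500933-122501182, minus strand): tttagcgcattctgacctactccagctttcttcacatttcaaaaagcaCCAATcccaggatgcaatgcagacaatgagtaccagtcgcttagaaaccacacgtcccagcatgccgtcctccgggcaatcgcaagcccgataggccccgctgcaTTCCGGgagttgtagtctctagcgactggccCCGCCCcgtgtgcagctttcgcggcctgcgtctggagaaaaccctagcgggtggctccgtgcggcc
The RBM7 window held TGCGCA, a part of the NRF1 site, at 2 positions. Of 35116 promoter windows of this length, 6.89% held it at least once. The ZCCHC8 window held 1 CCAAT box, 1 GC box and 1 ETS core, which were present in 32.0%, 42.6% and 14.5% of the windows, respectively. The MTREX window held 1 GC box. Neither printed window held a TATA box, a cAMP response element or an E box, found in 10.7%, 1.65% and 6.35% of the windows. These are letter matches and no binding was measured.

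RBM7, the RNA-binding subunit, was lower in irradiated cells on every array. The mean over its features was -1.3, -1.07 and -1.10 on the direct arrays of replicates 1, 2 and 3, and -1.0, -0.87 and -1.02 on the dye-swap arrays. The 3 direct arrays therefore all lay below the 3 dye-swap arrays, a split not counted over the other genes, and all 6 lay far below 0. The mean over replicates was -1.06 ± 0.089 (SD, n = 3), a 2.08-fold lower ratio. Among 466 tested genes with 3 or more features this was the third lowest value (rank 3), and among all 775 tested genes rank 36 from the lowest. In RNA from whole cultures, less RNA per cell and fewer cells holding it cannot be told apart, and because each array had been normalized, a ratio is set against the majority of its features.

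ZCCHC8, the scaffold subunit, had the lowest ratio of the 3 genes. Its single feature read -2.17, -1.67 and -1.94 on the direct arrays and -2.17 and -2.0 on the dye-swap arrays of replicates 1 and 2. The dye-swap cell of replicate 3 was empty, so 2 replicates had both orientations. Their mean was -2.0 ± 0.24 (SD, n = 2), or 4.01-fold lower, and all 5 values lay below every RBM7 gene value. ZCCHC8 ranked 6 from the lowest of 775 tested genes, next to TANK at -2.02 and NR3C1 at -1.85, and 6 of 309 among genes with 1 feature.

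MTREX, the helicase subunit, had a ratio nearer to 0 that differed between the dye orientations. Its single feature read -0.96, -0.51 and -0.76 on the direct arrays and -0.17, 0.09 and -0.22 on the dye-swap arrays. The 2 orientations did not overlap, and the dye-swap array of replicate 2 was above 0. Such a split was not counted over all genes, and 51.9% of the 775 tested genes were called by the orientation test given below. The mean was -0.42 ± 0.19 (SD, n = 3), or 1.34-fold lower, with -0.74 ± 0.23 for the direct and -0.10 ± 0.17 for the dye-swap hybridizations (SD, n = 3 each). It ranked 133 of 775 tested genes.

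**Figure D1:**
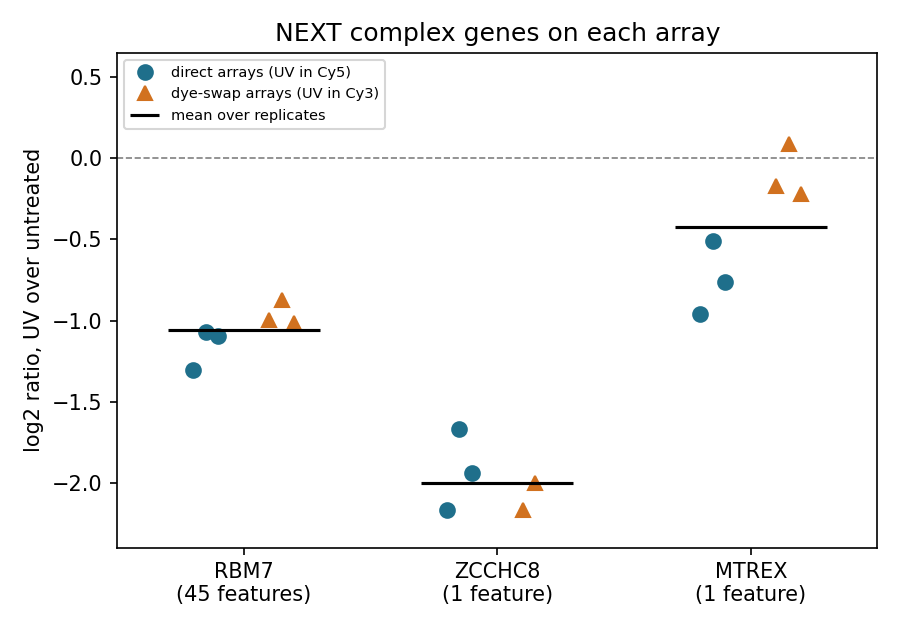
Log2 ratio of UV over untreated (y axis) for RBM7 (mean of its features), ZCCHC8 and MTREX on each array, with circles for direct and triangles for dye-swap arrays and a line at the mean over replicates. RBM7 points sit between -1.3 and -0.87 and the 5 ZCCHC8 points between -2.17 and -1.67, whereas MTREX points of the 2 orientations are apart.

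In the fit across all genes (limma, adjusted p of 0.05), 3 of 3 members were called lower, where 41.4% of the 775 tested genes were, and 71.7% were called in either direction. As this contrast served to choose the members, nothing is read from that count. In RBM7 and MTREX replicate 1 was the lowest (-1.15 and -0.56) and replicate 2 the highest (-0.97 and -0.21). ZCCHC8 had only these 2 replicates, at -2.17 and -1.83, so it gives no order of 3. Among the 37 RBM7 features with a value on all 6 arrays, replicate 1 was lowest in 27 and replicate 2 highest in 35. These counts were not made over all features of the array, so nothing particular to RBM7 is read from them. The arrays of replicate 2 also had the narrowest spread of ratios within each orientation, with SDs over all features of 0.316 (direct) and 0.322 (dye-swap) against 0.352 to 0.375 on the other arrays. The part of this spread in the order of the replicates was not tested.

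The 45 RBM7 features gave a graded pattern rather than a single value. Of the 37 features with 6 values, 36 were below 0 on every array, and their means ran from -2.25 to -0.01 with a median of -1.23. At or below -1, that is at least 2-fold lower, were 24 features, of which 1 lay below -2, 13 between -2 and -1.3 and 10 between -1.3 and -1. A further 12 lay between -1 and -0.3, and 1 lay above -0.3. The SD between these features was 0.449, whereas the median SD of a feature between replicates was 0.0781 and the highest 0.153. The spread between features was thus larger than the replicate spread of any one of them.

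**Figure D2:**
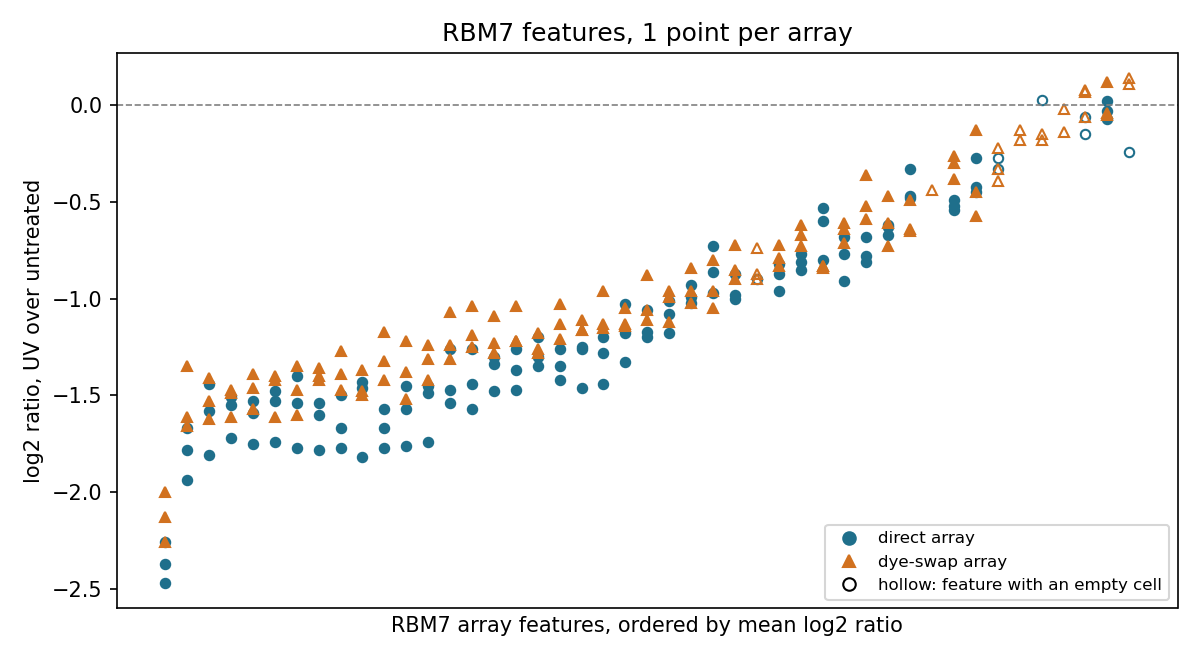
Log2 ratio of UV over untreated (y axis) of each RBM7 feature on each array, with features ordered by their mean (x axis), circles for direct arrays, triangles for dye-swap arrays and hollow symbols for features with an empty cell. The means run from -2.25 at the left to about 0 at the right, where most hollow symbols lie.

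At the low end, feature 22627 stood apart from the rest. It read -2.47, -2.26 and -2.37 on the direct arrays and -2.13, -2.0 and -2.26 after the dye swap, a mean of -2.25 ± 0.10 (SD, n = 3) or 4.75-fold lower. All 6 of these values were below every value of the other RBM7 features. The next was feature 10858 with -1.94, -1.67 and -1.78 on the direct arrays and -1.61, -1.35 and -1.66 after the dye swap. Feature 34525 followed with -1.81, -1.44 and -1.58 and with -1.53, -1.41 and -1.62. Their means of -1.67 ± 0.14 and -1.56 ± 0.13 (SD, n = 3) lay close together, with feature 10858 the lower in 3 of 3 replicates.

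At the high end, feature 13689 did not move with the rest of RBM7. It read -0.03, 0.02 and -0.07 on the direct arrays and -0.05, 0.12 and -0.04 after the dye swap, with a mean of -0.01 ± 0.068 (SD, n = 3), so it lay on both sides of 0. Feature 41938 read -0.42, -0.27 and -0.45 and then -0.13, -0.45 and -0.57, and feature 2978 read -0.52, -0.49 and -0.54 and then -0.30, -0.26 and -0.38. Both were below 0 on all arrays, at means of -0.38 ± 0.12 and -0.41 ± 0.043 (SD, n = 3). Which exon or junction each feature covers was not analysed here, and features that share sequence could not be recognized.

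By limma 37 of the 39 tested RBM7 features were called lower and none higher (0 also at an unadjusted p under 0.05), beside 28.2% of 34301 features called lower and 26.3% called higher on the whole array. These calls rest on the ratios that chose the members, and nothing is read from them. The 2 that were not called were features 13689 and 8854, the latter with a mean of -0.05 over 2 replicates. Features of 1 gene share their RNA and are no replicates of each other. Another 6 features had fewer than 2 complete replicates and were not tested.

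The RBM7 features with empty cells lay nearer to 0. There were 8 of them, all empty on the direct array of replicate 1, and 7 had a mean over their arrays above -0.45, with a median of -0.13 for the 8. The exception was feature 30812, at -0.90 on 1 direct array and -0.87, -0.74 and -0.90 on the dye-swap arrays. The same held in the 5 genes most like RBM7, where the median of features with 1 to 5 values was -0.06 in PRP4K, -0.31 in PLK2, -0.18 in MCL1, -0.02 in SOS1 and -0.01 in NFKBIA, against -1.32, -1.14, -1.33, -1.03 and -0.96 for features with 6 values. The RBM7 mean over features with 6 values was -1.14, and over the 8 with an empty cell it was -0.24. The sources used here do not state why a cell was left empty.

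The splicing index, obtained by subtracting from each feature the average of the remaining features for the same gene, described the same pattern within RBM7. With an adjusted p of 0.05 by limma and a fold over 1.4, 5 of 39 features were called lower than the rest of RBM7 and 6 higher, beside 2.16% and 1.76% (3.92% in all) of 33992 features of the array. As this index rests on the ratios that chose the members, nothing is read from these counts. The lower ones were feature 22627 at -1.22 (SE 0.032), feature 10858 at -0.62 and features 34525, 22784 and 40827 between -0.52 and -0.50. The higher ones were led by feature 13689 at 1.08 (SE 0.032) and feature 8854 at 0.99, followed by features 36570, 41938, 2978 and 8762 between 0.73 and 0.56. None of the 6 was itself above 0 on average, so these features had ratios nearer to 0 than the others. When the median of the other features was the reference, the count of lower calls fell to 2 and that of higher calls rose to 8. With the average as the reference, only features 22627 and 13689 passed a fold of 2.

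A wide spread within the gene was shared with the genes most like RBM7. Among 462 genes with 10 or more features with 6 values, the SD between features had a median of 0.136, and RBM7 ranked 17 from the highest. PRP4K, PLK2, MCL1, SOS1 and NFKBIA, the 5 genes of 3 or more features whose 6 array values were nearest to those of RBM7 (root mean square difference 0.135, 0.176, 0.199, 0.258 and 0.362, of 465 genes compared), had SDs of 0.749, 0.526, 0.658, 0.409 and 0.481. In each of them features were called by the index in both directions, for example 7 lower and 11 higher of 46 in MCL1 and 15 lower and 16 higher of 51 in PRP4K. For ZCCHC8 the nearest genes over its 5 arrays were MAX, NR3C1 and RHOH (0.20, 0.243 and 0.248), and for MTREX over 6 arrays the spliceosome-associated genes CWC27 and CWC15 and the hnRNP-like gene SYNCRIP (0.147, 0.148 and 0.154), each with 1 feature. The CWC27, CWC15 and SYNCRIP values were also lower on direct than on dye-swap arrays of the same replicate. As these genes were picked for nearness to MTREX on the same arrays, nothing is read from this.

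The next comparison asked whether both dye orientations gave the same ratio for the NEXT genes. The measure was the direct minus the dye-swap value of a replicate, divided by 2, which the choice of members did not use, and it was tested by limma over all 775 genes, of which 51.9% were called and 24.6% with the direct arrays lower. For MTREX it was -0.32 (SE 0.028, n = 3, adjusted p = 0.00308), lower on the direct array in 3 of 3 replicates. For RBM7 it was -0.10 (SE 0.025, n = 3, adjusted p = 0.0348), also lower on the direct array in 3 of 3 replicates, and the call was lost over features with 6 values (-0.07, adjusted p = 0.0512) and without any 1 replicate (adjusted p from 0.0637 to 0.152 by limma). For ZCCHC8 it was 0.08 (SE 0.049, n = 2, adjusted p = 0.255 by limma), with the orientations equal in replicate 1 and the direct array higher in replicate 2. The MTREX difference was thus of a size with its UV ratio, while that of RBM7 was small beside its own.

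Among single RBM7 features, 15 of 39 differed between orientations by limma, all lower on the direct array, where 22.3% of 34301 features did so in that direction and 48.6% in either. Without replicate 1 they numbered 10. Without replicate 2 or replicate 3 there were none, although 9 and 15 of 37 had an unadjusted p under 0.05, and no feature of the whole array was called (13042 of 32032 and 13381 of 31682 at an unadjusted p under 0.05). Of the 37 features with 6 values, 33 had a lower mean on the direct arrays, a count not made over the whole array. The order of the features was nonetheless alike in both orientations. Across these features the direct and dye-swap means had a Pearson r of 0.973 and a Spearman rho of 0.954, and r between any 2 arrays ran from 0.938 to 0.990, where the points share 1 gene and 1 set of RNAs.

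**Figure D3:**
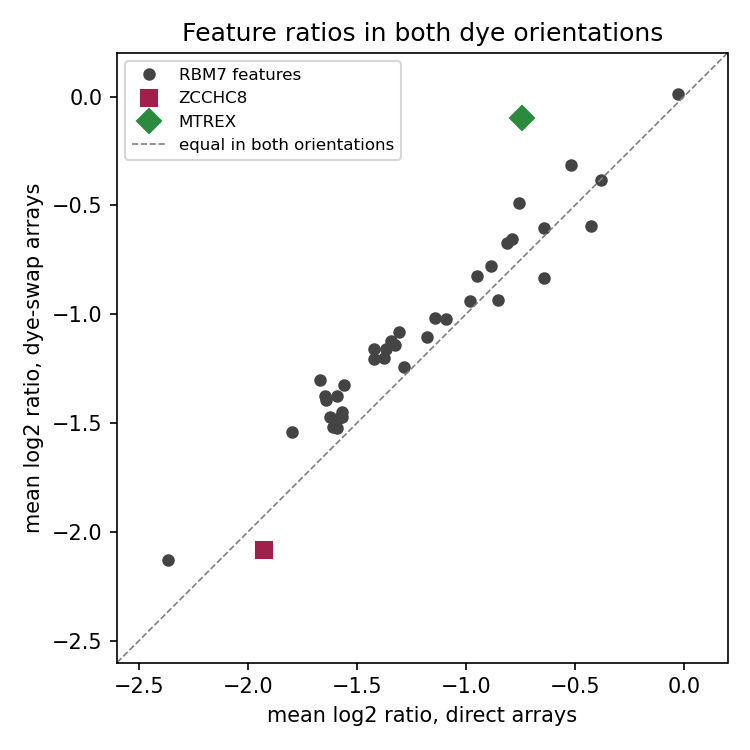
Mean log2 ratio on the dye-swap arrays (y axis) against the direct arrays (x axis) for the 37 RBM7 features with 6 values, ZCCHC8 and MTREX, with a dashed line where both are equal. RBM7 features follow the line slightly above it, ZCCHC8 lies close to it, and MTREX lies far above it at -0.74 and -0.10.

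Genes of connected pathways were described from lists that left the members out. None of 22 listed subunits and cofactors of the nuclear exosome (such as EXOSC3, EXOSC10 and DIS3) had a named feature, so the partner of NEXT was not covered. Of the cap-binding genes, which recruit NEXT to capped RNA, 2 were tested. NCBP2 rose by 0.13 (SE 0.016, n = 3, adjusted p = 0.00393 by limma), a call lost without replicate 3 (adjusted p = 0.0534), and NCBP1 was at 0.00 (adjusted p = 0.931). Over all tested genes 41.4% were called lower and 30.3% higher, and the median log2 ratio was -0.03.

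RBM7 is known to bind the splicing factors SF3B2 and SRSF3. SRSF3 fell by 0.39 (SE 0.031, n = 3, adjusted p = 0.00107, 84 features). SF3B2, with 1 feature, was at 0.03 over 2 replicates (adjusted p = 0.533), with 0.24, 0.37 and 0.16 on the direct arrays and -0.20 and -0.21 on dye-swap arrays 2 and 3, so its sign followed the orientation. With the other SF3B genes, 3 of 7 tested genes fell and 2 rose, with a median of 0.00. Among all tested genes 41.4% were called lower and 30.3% higher. SRSF3 had the largest fall and SF3B4 the largest rise (0.39, SE 0.058, 1 feature), and the called rise of SF3B6 had opposite signs in the 2 orientations (-0.03 direct, 0.33 dye-swap). Without replicate 3 neither rise was called, nor was the fall of SF3B1 (adjusted p = 0.0586 by limma). The third fall was that of PHF5A (-0.36, 1 feature). On the dye-swap arrays alone the falls of PHF5A (-0.19) and SF3B1 (-0.07) were not called.

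RNA ratios of genes of the p38-MK2 pathway, which phosphorylates RBM7, and of the 14-3-3 family were called in both directions. Kinase activity was not measured. Of 7 tested kinases and 14-3-3 genes, 3 fell and 4 rose, with a median of 0.11. On the whole array 41.4% of tested genes were called lower and 30.3% higher, so calls in either direction were common. MAPK14, the p38-alpha kinase, fell by 0.36 (SE 0.026, n = 3, adjusted p = 0.000834, 57 features) and MAPKAPK2, which encodes MK2, by 0.17 (SE 0.038, 1 feature), the latter not called without replicate 3. YWHAH, a 14-3-3 gene, fell by 0.20, a call lost on the direct arrays alone (-0.06, adjusted p = 0.168 by limma). The p38-beta gene MAPK11 had the largest rise (0.31, SE 0.050, 1 feature), and MAPKAPK3, MAPK13 and MAPK12 rose by 0.14, 0.15 and 0.11. Without replicate 3 only 1 of the 4 rises, that of MAPKAPK3, was called. The rise of MAPK12 was also not called without replicate 1 or from dye-swap arrays only (0.02, with an adjusted p of 0.602 by limma).

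All 3 tested genes of P-TEFb, the elongation factor held by the 7SK particle, fell, with a median of -0.31. The share called lower over all tested genes was 41.4%. CCNT1, which encodes cyclin T1, fell by 1.08 (SE 0.020, n = 3, adjusted p = 5.85e-05, 1 feature), and its direct arrays read -1.23, -1.3 and -1.34 and its dye-swap arrays -0.99, -0.80 and -0.82. CCNT2 fell by 0.31 (SE 0.028, 106 features). The kinase gene CDK9 was called at -0.07 (SE 0.020, 86 features) but not on the direct arrays alone or without replicate 1 or replicate 3 (adjusted p of 0.666, 0.119 and 0.169 by limma). No gene of the 7SK particle itself had a named feature.

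RBM7 was low among the genes that carry the RBM symbol. Of 17 other tested RBM genes, 10 of them with 1 feature, 9 fell and 4 rose, with a median of -0.17. Over all tested genes 41.4% were called lower and 30.3% higher. RBM4B had the largest fall (-1.32, SE 0.019, 1 feature) and was the only other one past 2-fold, where 5.29% of all tested genes were called lower past 2-fold. RBM12 (-0.98) and RBM25 (-0.89) with 1 feature each and RBM15 (-0.62, SE 0.021, 41 features) followed. RBM23 had the largest rise (0.29, SE 0.042, 1 feature), and the called fall of RBM11 had opposite signs in the 2 orientations (-0.57 direct, 0.11 dye-swap). Not called without replicate 1, without replicate 3 or on the direct arrays alone were the rises of RBM8A (0.10) and RBMX (0.13). The fall of RBM4 (-0.17) was not called on the direct arrays alone, nor that of RBM11 without replicate 3.

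**Figure D4:**
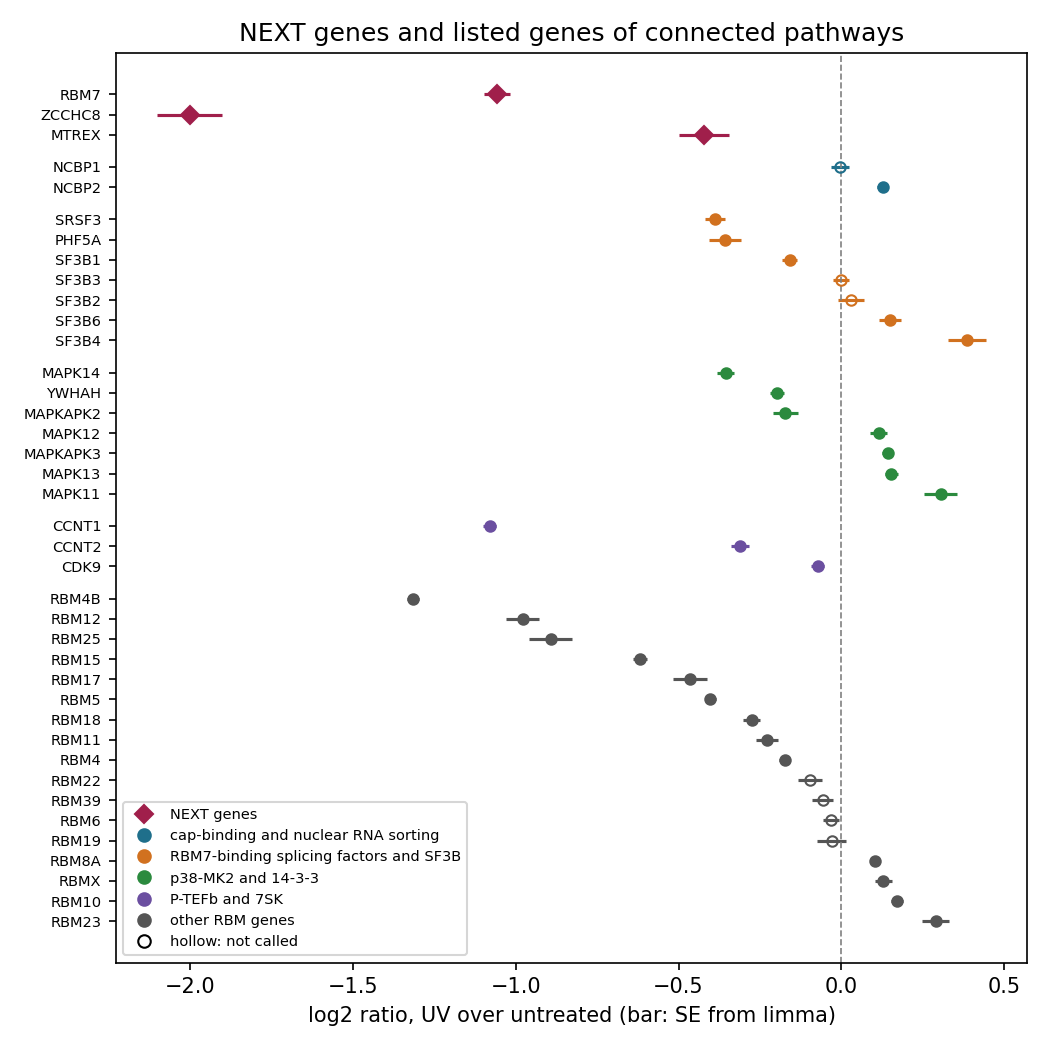
Log2 ratio of UV over untreated (x axis, mean over replicates with the SE from limma) for the NEXT genes and the tested genes of the 5 pathway lists with a tested gene, by list, with hollow points for genes not called. ZCCHC8 is the lowest of all genes shown at -2.0, and CCNT1 and RBM4B are the listed genes past -1.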

How the data were processed

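The authors deposited 1 value table with a log2 ratio of UV over untreated for each feature and array, made with normexp background correction, LOWESS normalization within arrays and limma. No source used here gives the genome build of the probes. The sign was taken from the labelled dyes and from arrays of both orientations that correlated above 0 (r from 0.538 to 0.663), so the dye-swap columns were taken as already turned. It was set once against the sign of the supplementary gene values of the study, which were not used as data. The supplement text at hand lists such values for the Ewing sarcoma line LAP-35 and not for Hep3B. The sign in Hep3B therefore rests on the labelled dyes and on the arrays of both orientations. Array medians lay from -0.010 to 0.010. Of the features, 36532 to 38392 per array had a value. Arrays give no counts, and the number of replicates limits the precision.

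Features were named through the platform annotation and a RefSeq table (GRCh38.p14), by accession for 38971, symbol for 978 and synonym for 197, and 5074 had no name. As in the methods of the study, a gene value was the mean of its features on an array. The 2 arrays of a replicate were averaged, as their titles give 1 replicate number. As a check on this, the r of deviations from the orientation means was -0.0070 in replicate 1, 0.452 in replicate 2 and 0.101 in replicate 3. Between direct array 1 and dye-swap array 3 it was 0.425, so the values bear out the numbering mainly in replicate 2. Replicate means, SDs and the orientation test rest on the titles. A replicate needed both orientations and a test 2 replicates. Tests used limma 3.58.1 (R 4.3.3), two-sided, with Benjamini-Hochberg adjustment over all genes or features. SEs are from its moderated variance and leave out the difference between orientations. The procedures were run on simulated data with planted changes and independent noise of a common SD. Such data lacked the orientation differences of the real arrays, so the runs check the code and not the calls.

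Members, lists and motifs were chosen with earlier results of these data known. Named were the members, the 3 lowest and 3 highest RBM7 features with 6 values, RBM7 features called by the index (here all 11, beyond the 6 first set), the nearest genes, the largest called fall and rise of each list and known binders of RBM7. Other listed genes, and features 8854 and 30812, were named after their values were seen. Alternatives covered centering, gene summary, orientation, replicate block, replicates left out, empty cells and the index.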

Additional observations from a re-analysis of the deposited data

Results flagged for a closer look

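For 2 of the 3 NEXT genes the UV ratio differed between the dye orientations by a test of the difference itself (limma), where 51.9% of all 775 tested genes did so. The direct minus the dye-swap value, divided by 2, was -0.32 for MTREX and -0.10 for RBM7, the latter not called without any 1 replicate, without the replicate block or over features with 6 values.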

How the results depend on the processing

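RBM7, ZCCHC8 and MTREX had ratios below 0 in every setting run. The RBM7 ratio of -1.06 was -1.19 by the median of its features, -1.16 over direct arrays and -0.96 over dye-swap arrays alone, and -0.24 over its features with an empty cell, a choice made after the data were seen. MTREX was at -0.74 in direct and -0.10 in dye-swap hybridizations. With a dye term and a replicate block over the 6 arrays the 3 genes were at -1.06, -2.01 and -0.42, and 334 genes were called lower and 246 higher. Counts within each gene list equalled those from the replicate means. Without the block the RBM7 orientation value of -0.10 was not called (adjusted p = 0.0720 by limma), nor over features with 6 values (-0.066), another choice made after the data were seen.

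Leaving out 1 replicate gave RBM7 ratios from -1.10 to -1.01 and orientation values from -0.13 to -0.071. Genes called lower numbered 235 to 363 and higher 76 to 274 (321 and 235 with all), features called lower 6352 to 9474 and higher 3487 to 8588 (9665 and 9028), genes called by orientation 124 to 435 (402), features by orientation 0 to 13922 and RBM7 features by orientation 0 to 10. Rises numbered 0 to 1 in the cap-binding, 0 to 2 in the SF3B, 1 to 4 in the p38 and 14-3-3 and 2 to 4 in the RBM list.

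On the direct arrays 1 cap-binding gene was called lower and 2 RBM genes higher. On the dye-swap arrays 2014 features in place of 1331 passed the index, 8 of RBM7 lower and 9 higher. Against the median of the other features 2 RBM7 features were lower and 8 higher. With no fold threshold 16815 features passed, 22 of RBM7 lower and 15 higher, and with a fold over 2 there were 130, 1 and 1. Among genes with 3 or more features 181 were called lower. The causes were not tested. Of 29 called listed genes 14 kept their call in the 6 settings of orientation, replicates and centering.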
